A study of Mus musculus and Homo sapiens with 12 samples.

Results

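The 8q24 locus around MYC was examined in CCD841 cells, on chromosome 8 from 126400000 to 129000000 of GRCh38. Every peak that the 4 CUT&Tag libraries of these cells list in this window was taken, and peaks of a library that touch each other were joined to 1 region. For H3K18bu the window held 391 regions in replicate 1 and 408 in replicate 2, and for H4K12bu it held 155 and 230. Together these were 1184 of the 929977 regions of the 4 lists, and 0 regions crossed a border of the window. CCD841 is a human colorectal cell line that the paper uses as normal cells. CUT&Tag maps a histone mark by letting an antibody bring a transposase to the chromatin that carries it. All 4 libraries came from cells given 1 mM sodium butyrate (NaBu) for 12 to 16 h, with 2 replicates for H3K18bu and 2 for H4K12bu. No untreated CCD841 library and no acetyl mark in these cells was analysed here, so the values describe treated cells and not a change with NaBu. The labels do not say whether replicates were separate cultures, so the spread between them may be technical. An exact two-sided test of 2 libraries against 2 cannot go below p = 0.333, and the values are therefore given library by library with no test.

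MYC encodes a transcription factor that drives growth and proliferation, and in colon epithelium it is a target of Wnt signalling. It lies in a gene-poor part of the long arm of chromosome 8 that holds several long non-coding RNA (lncRNA) genes and distant enhancers. PCAT1, PRNCR1, CASC19 and CASC8 are lncRNA genes on the upstream side, and POU5F1B, on the same side, is a retrotransposed copy of the pluripotency gene POU5F1. PVT1, on the downstream side, is a lncRNA gene that is often gained in tumours together with MYC and hosts a set of microRNAs. H3K18bu and H4K12bu are butyryl groups on lysines of the tails of histones H3 and H4, and butyrate is a product of fibre fermentation by gut microbes.

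Annotation by GENCODE 44 placed 36 genes in or across the window, of which 18 are lncRNA genes and 3 encode proteins (LRATD2, POU5F1B and MYC). Of the 8 genes the description is built around, 7 were located, and CCAT1 was not located in this annotation and has no value here. Gene bodies overlap: PCAT1 spans PRNCR1 and CASC19 whole and CASC8 and POU5F1B in part, so that 1 region can count for several genes. CASC11, a lncRNA gene on the opposite strand, covers the MYC start, and CUT&Tag does not tell strands apart.

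The deposited lists have no read totals, and depth was read from the peaks. Each peak has a fold ratio over the local background of its own library, and from this ratio and the p of the peak the pileup was solved, which is the number of extended read ends over the summit. The lowest background was 1.40 and 1.12 read ends in the H3K18bu replicates, 1.55 in H4K12bu replicate 1 and 0.788 in H4K12bu replicate 2. The median pileup of all regions was 15, 11, 14 and 6 in the same order, so H4K12bu replicate 2 was the shallow library. In it 54.7% of all regions had q below 0.05, against 100% in each of the other 3 lists. A pileup of 5 or 6 in this library rests on as many read ends.

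H3K18bu was dense in the locus, and H4K12bu was not. H3K18bu had 15.0 and 15.7 regions per 100 kb in the window, against 7.19 and 7.85 on the rest of chromosome 8. H4K12bu had 5.96 and 8.85, against 6.38 and 9.45. The ratio of the window to the rest of the chromosome was 2.05 ± 0.0650 (SD, n = 2) for H3K18bu and 0.936 ± 0.00125 (SD, n = 2) for H4K12bu. Both H3K18bu replicates lay above both H4K12bu replicates in this ratio, and neither mark had replicates on both sides of 1. On the other chromosomes the densities were 6.81, 7.39, 6.72 and 9.14 regions per 100 kb, near those of the rest of chromosome 8. In covered length, H3K18bu regions took 4.49% and 3.87% of the window and 2.17% and 1.99% of the rest of the chromosome. H4K12bu regions took 1.84% and 1.62% of the window and 1.92% and 1.64% of the rest. The side of 1 on which H4K12bu lies depended on the threshold: with the 100000 strongest peaks of each list, its ratio was 1.10.

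Chromosome 8 was divided into 54 other windows of the same length to show the range along it. In H3K18bu replicate 1 these held 6 to 393 regions with a median of 196, and 2 of them held more than the MYC window. For H3K18bu replicate 2 the range was 5 to 437 with a median of 217, and 1 window held more. For H4K12bu the medians were 165 and 263.5 and the highest windows held 394 and 438 regions, and 31 and 32 windows held more than the MYC window. The locus thus stood near the top of the chromosome in both H3K18bu libraries and in the middle in both H4K12bu libraries. The windows before and after it were also above the H3K18bu medians. They held 302 and 278 regions in replicate 1 and 365 and 309 in replicate 2, so a high H3K18bu density was not particular to the MYC window. The fullest other window of H3K18bu replicate 2 began at 131600002, further towards the end of the same arm, and in replicate 1 this window and the one from 139400005 held 393 each.

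**Figure D1:**
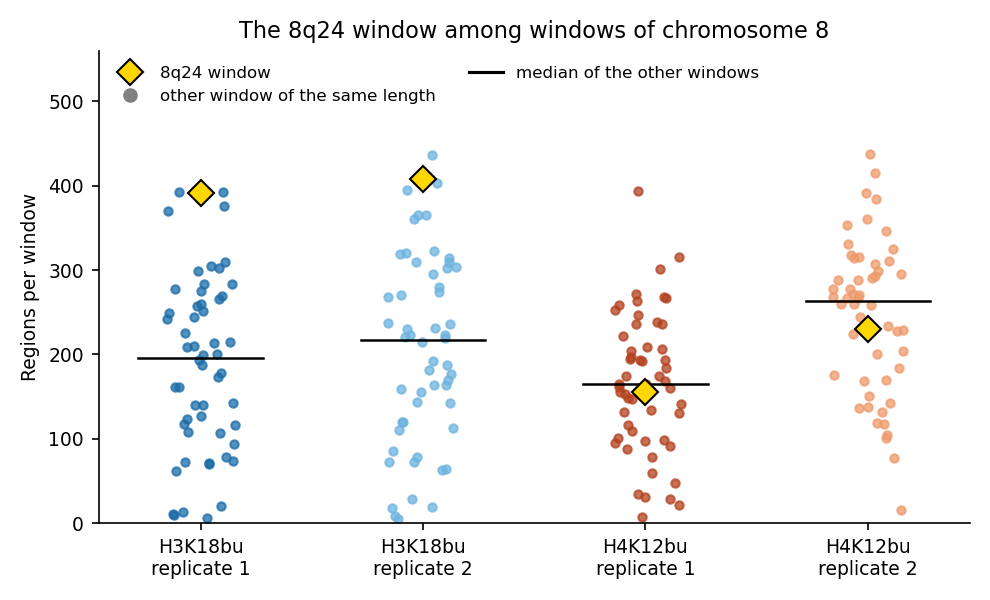
Regions (y axis, number per window of 2.6 Mb) in the 8q24 window (diamonds) and in 54 other windows of chromosome 8 (points) for each library (x axis), with the median of the other windows as a bar. The diamonds lie near the top for H3K18bu (391 and 408) and close to the bar for H4K12bu (155 and 230).

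Within the window, both marks peaked at the same place, over PVT1. In 26 bins of 100 kb the fullest bin of both H3K18bu replicates ran from 127900000 to 127999999, with 36 and 37 regions. The same bin held 34 and 32 regions of the H4K12bu replicates, and the fullest bin of H4K12bu replicate 2 was its neighbour with 36. Median bins held 14 and 14.5 regions of H3K18bu but 2 and 6 of H4K12bu. The 5 fullest bins held 36.1% and 37.7% of the H3K18bu regions of the window, and 70.3% and 54.3% of the H4K12bu regions. H3K18bu was therefore spread over most of the window, while H4K12bu was more gathered, above all in replicate 1. In H4K12bu replicate 2, 51.7% of the regions were centred outside the PVT1 body. Empty bins numbered 8 and 1 in the H4K12bu replicates and 2 in each H3K18bu replicate. Across the 26 bins, which share their gene content and base composition, Pearson's r was 0.90 between the H3K18bu replicates and 0.93 between the H4K12bu replicates, and Spearman's rho was 0.92 and 0.64. Between a library of one mark and a library of the other, r ran from 0.63 to 0.65.

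**Figure D2:**
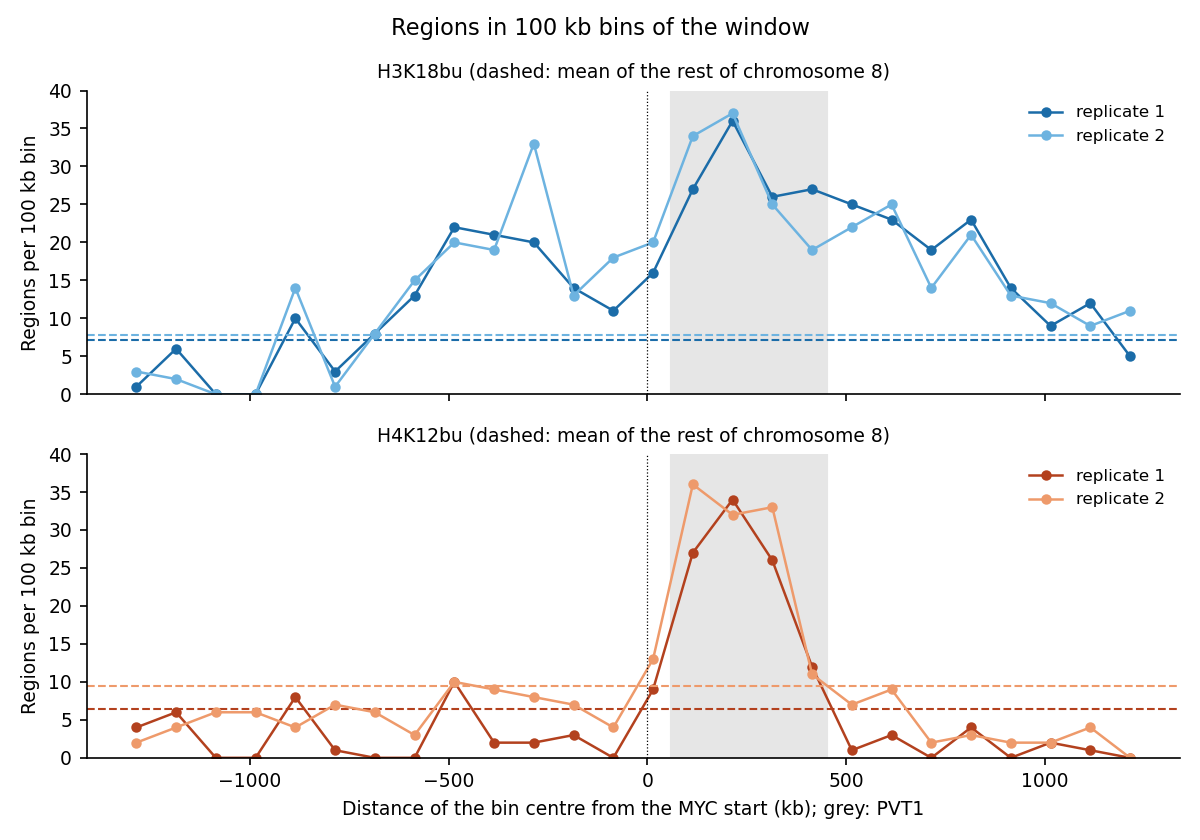
Regions in each 100 kb bin (y axis) against the distance of the bin centre from the MYC start (x axis, kb), with a line per replicate, dashed lines for the mean of the rest of chromosome 8 in that library, and PVT1 in grey. H3K18bu stays above its dashed lines over most of the window. H4K12bu is highest over PVT1, where bins hold up to 34 and 36 regions, and lower elsewhere. Its bins from 127200000 (10 and 10 regions) and from 127700000 (9 and 13, with the MYC and PVT1 starts) still lie above the dashed lines.

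The sides of MYC differed in all 4 libraries. Downstream of the MYC start (127735434, plus strand) H3K18bu had 20.4 regions per 100 kb in both replicates, and upstream it had 9.88 and 11.2. H4K12bu had 9.25 and 12.1 downstream and 2.85 and 5.77 upstream. The downstream surplus of H4K12bu did not hold without PVT1. With the PVT1 body left out, the window had 2.49 and 5.39 H4K12bu regions per 100 kb, below the upstream values. In the 59.1 kb between the MYC and PVT1 starts H4K12bu had 10.2 and 20.3 regions per 100 kb. Between the PVT1 end and the window end it had 1.35 and 3.69. H3K18bu kept 16.7 and 16.0 there. Outside the PVT1 body, counting regions by their centre, the H3K18bu ratio to the rest of chromosome 8 was 1.77 and 1.71, and the H4K12bu ratio was 0.391 and 0.571.

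PVT1 (127794526 to 128187101, plus strand, 393 kb, 190 annotated transcripts) was the gene with most regions in every library. It held 111 and 113 regions of H3K18bu and 100 and 111 of H4K12bu, or 28.3, 28.8, 25.5 and 28.3 per 100 kb. Here the libraries of the marks overlapped in density, which they did in none of PCAT1, CASC19, CASC8, POU5F1B, CASC11, LINC00824 and CCDC26, but also in MYC, PRNCR1 and ENSG00000253573, which hold few regions. Among 2144 annotated genes of at least 200 kb, PVT1 ranked 21 and 25 for H3K18bu and 98 and 59 for H4K12bu. The median of the other long genes was 6.99 and 8.43 regions per 100 kb for H3K18bu and 4.88 and 9.29 for H4K12bu. PVT1 is thus in the upper part of the long genes for both marks, and not at their top.

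Regions present in both replicates, called shared below, were used to name places. A shared region is a stretch of joined peaks with a peak of each replicate that overlap by at least 1 bp. Of the H3K18bu regions of the window, 54.7% of replicate 1 and 54.4% of replicate 2 had a partner in the other replicate, against 54.7% and 52.5% over all chromosomes. Of the H4K12bu regions, 49.7% and 36.1% had one, against 45% and 37.6% over all chromosomes. Replicates of the locus therefore overlapped about as they did elsewhere. The window held 196 shared regions of H3K18bu and 75 of H4K12bu, which is 7.54 and 2.88 per 100 kb, against 3.67 and 2.79 on the rest of chromosome 8. PVT1 held 62 (31.6%) of the former and 54 (72.0%) of the latter.

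The strongest shared region of both marks was the same place in an intron of PVT1, 373.5 kb downstream of the MYC start. Its H3K18bu borders were 128108930 and 128109470, and replicates 1 and 2 had folds of 13.3 and 12.7 at pileups of 121 and 106. Its H4K12bu borders were 128108942 and 128109460, and the folds were 10.2 and 9.15 at pileups of 78 and 32. Ranked by the lower −log10 p of the replicates, it was number 16 of 108536 shared H3K18bu regions and number 46 of 90476 shared H4K12bu regions of all chromosomes. Second for both marks was a region over a PVT1 exon from 127853897 to 127855081, with H3K18bu pileups of 150 and 125. Its H4K12bu counterpart, 127853911 to 127854469, had pileups of 96 and 29. The next for H3K18bu were regions of PVT1 from 127809767 to 127810621 (pileups 64 and 84) and from 127833010 to 127833572 (pileups 47 and 49). The fifth lay outside annotated genes, from 128277184 to 128278360, with a fold of 10.3 in both replicates. All 5 overlapped a shared H4K12bu region.

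For H4K12bu the third was a region from 126827326 to 126828300, 907 kb upstream of MYC in introns of PCAT1 and the lncRNA gene ENSG00000253573, with a fold of 7.97 and 6.21. The fourth (127931484 to 127932394) and the fifth (127992153 to 127992977) lay in PVT1, with pileups of 67 and 22 and of 34 and 20. Each of these overlapped a shared H3K18bu region. After the leading few, the values dropped: the tenth shared region ranked 2249 of all shared H3K18bu regions and 6024 of all shared H4K12bu regions.

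**Figure D3:**
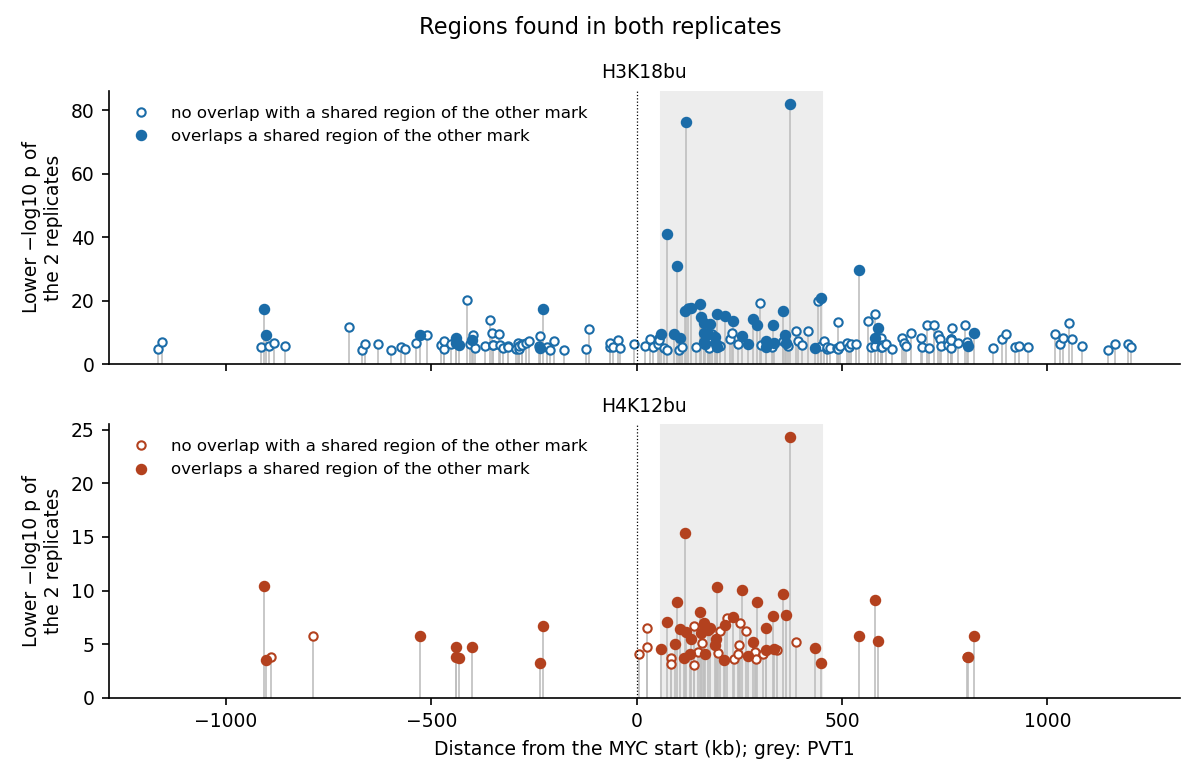
Regions found in both replicates, with the lower −log10 p of the replicates (y axis, a separate scale per mark) against the distance from the MYC start (x axis, kb). Filled points overlap a shared region of the other mark, open points do not, and PVT1 is in grey. The tallest points of both marks stand at the same places in PVT1, and H4K12bu has few points outside it.

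MYC itself (127735434 to 127742951, 7.52 kb) held 1 and 0 regions of H3K18bu and 1 and 2 of H4K12bu, and at this length the density of the rest of chromosome 8 gives less than 1 region in each library. The region of H3K18bu replicate 1 lay over the start, from 127735208 to 127735447 (fold 3.58, pileup 14). The nearest region of H3K18bu replicate 2 on the upstream side ended 6.18 kb before the start. H4K12bu replicate 1 had a region from 127734015 to 127734282, ending 1.15 kb before the start, with a pileup of 12. H4K12bu replicate 2 had a region from 127734981 to 127735426, just before the start, with a pileup of 6. A region within 1 kb of the MYC start was thus listed in H3K18bu replicate 1 and H4K12bu replicate 2 only. That of H4K12bu replicate 1 lay just beyond this distance. These 2 H4K12bu regions did not overlap, and the start was in no shared region of either mark. The shared H3K18bu region nearest to it ran from 127729164 to 127729273 in CASC11, 6.16 kb upstream, with pileups of 14 and 13. The nearest shared H4K12bu region, from 127741849 to 127741930, lay 6.42 kb downstream in an exon of MYC, with pileups of 10 and 6. Among the 100000 strongest peaks of each list these nearest places were 53.5 kb downstream for H3K18bu and 24.8 kb downstream for H4K12bu. At q below 0.05 both stayed where they were. At q below 0.01 the H3K18bu place stayed, and the H4K12bu place was 24.8 kb downstream.

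The stretch between the MYC and PVT1 starts, 59.1 kb long, held 12 and 16 regions of H3K18bu and 6 and 12 of H4K12bu. From 10 to 50 kb downstream of the MYC start there were 8, 10, 3 and 7 regions in the 4 libraries, and from 100 to 200 kb there were 35, 43, 34 and 37. From 500 to 1000 kb downstream H3K18bu still had 97 and 87 regions, while H4K12bu had 8 and 20. The marks were thus close in number between 100 and 200 kb downstream of MYC and far apart beyond 500 kb.

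**Figure D4:**
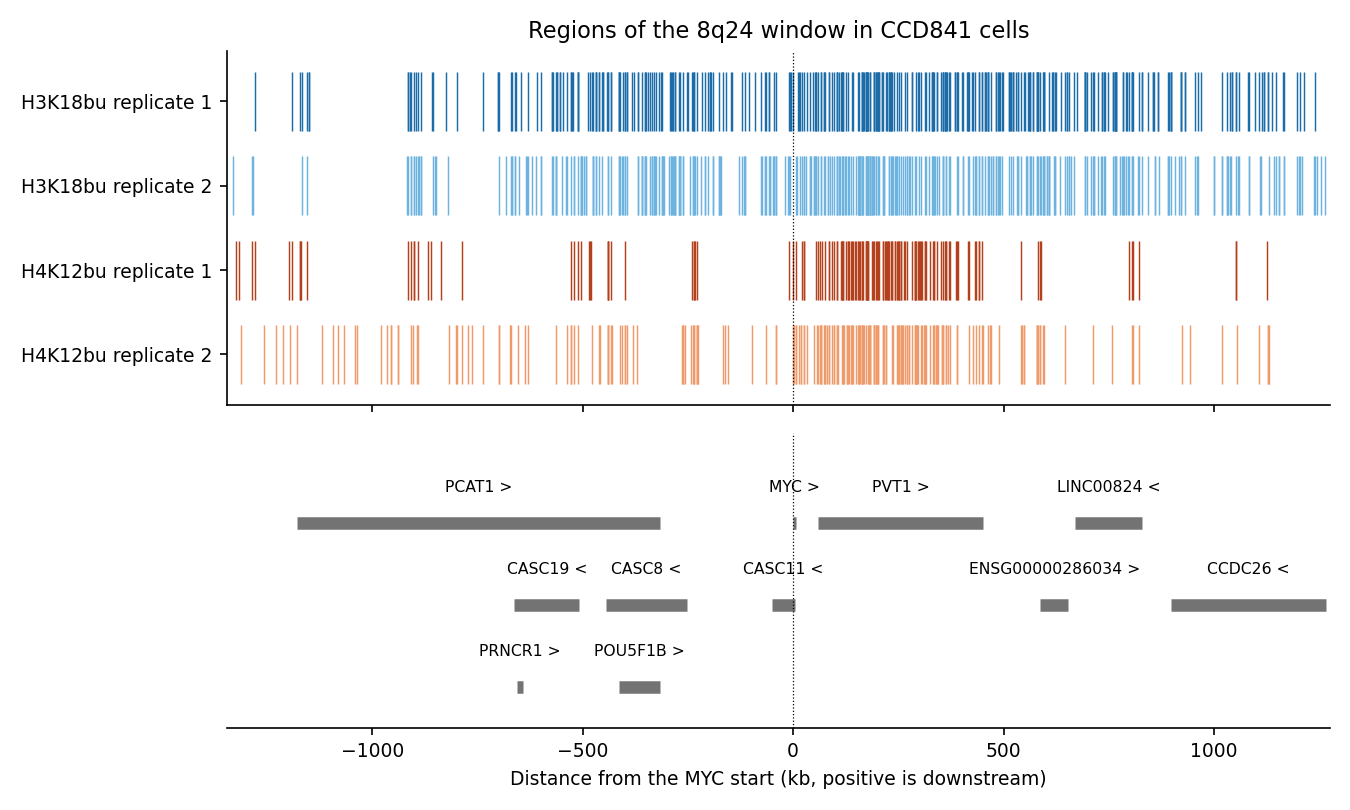
Every region of the window as a tick in each library (rows, upper panel) and the annotated genes with the direction of transcription (lower panel) against the distance from the MYC start (x axis, kb). H3K18bu ticks are dense from about the middle of PCAT1 to the window end, H4K12bu ticks are dense over PVT1, and the first part of PCAT1 is nearly empty in 3 of 4 libraries.

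On the upstream side, PCAT1 (126556323 to 127419050, plus strand, 863 kb) was the longest gene. It held 86 regions in each H3K18bu replicate, 9.97 per 100 kb, and 25 and 52 regions of H4K12bu, 2.90 and 6.03 per 100 kb. Its regions were unevenly placed. H3K18bu had its longest empty stretch of the window inside PCAT1, 235 kb from 126585803 to 126820544 in replicate 1 and 237 kb from 126580235 to 126817195 in replicate 2. H4K12bu replicate 1 was empty over the same part for 240 kb, from 126580434 to 126820877, and the shallow replicate 2 was not. Of the 38 shared H3K18bu regions of PCAT1, 8 lay also in CASC19, 16 in CASC8 or POU5F1B, and 14 in none of these. Of its 9 shared H4K12bu regions these counts were 1, 4 and 4.

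CASC19 (127072694 to 127227541, minus strand, 89 transcripts) held 23 and 22 regions of H3K18bu and 3 and 9 of H4K12bu, with 8 shared regions of H3K18bu and 1 of H4K12bu. PRNCR1 (127079874 to 127092600, plus strand, 12.7 kb), which lies inside CASC19 on the other strand, held 1 region in each H3K18bu replicate and 0 and 1 in the H4K12bu replicates. The PRNCR1 regions of H3K18bu were at 127089824 to 127089952 in replicate 1 and at 127083072 to 127083348 in replicate 2, each with a pileup of 10. They did not overlap, and PRNCR1 had no shared region of either mark. At a length of 12.7 kb, the density of the rest of chromosome 8 gives about 1 region.

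CASC8 (127289808 to 127482139, minus strand) was the densest of PCAT1, CASC19, PRNCR1 and CASC8 for H3K18bu, with 39 and 49 regions or 20.3 and 25.5 per 100 kb. For H4K12bu it held 5 and 16 regions, 2.6 and 8.32 per 100 kb. Its shared regions numbered 26 for H3K18bu and 4 for H4K12bu. POU5F1B (127322183 to 127420066, plus strand), inside CASC8 on the other strand, held 21 and 24 regions of H3K18bu and 1 and 7 of H4K12bu, and all its 13 shared H3K18bu regions lay in CASC8 also. Its annotated start was the strongest shared H3K18bu region upstream of MYC: a region from 127321674 to 127323130 (folds 8.41 and 9.56, pileups 27 and 23), number 7 of the 196. H4K12bu had a region there in replicate 2 only, with a pileup of 7. Reads from the part of POU5F1B that copies POU5F1 can match several places of the genome, so its values are uncertain there.

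**Figure D5:**
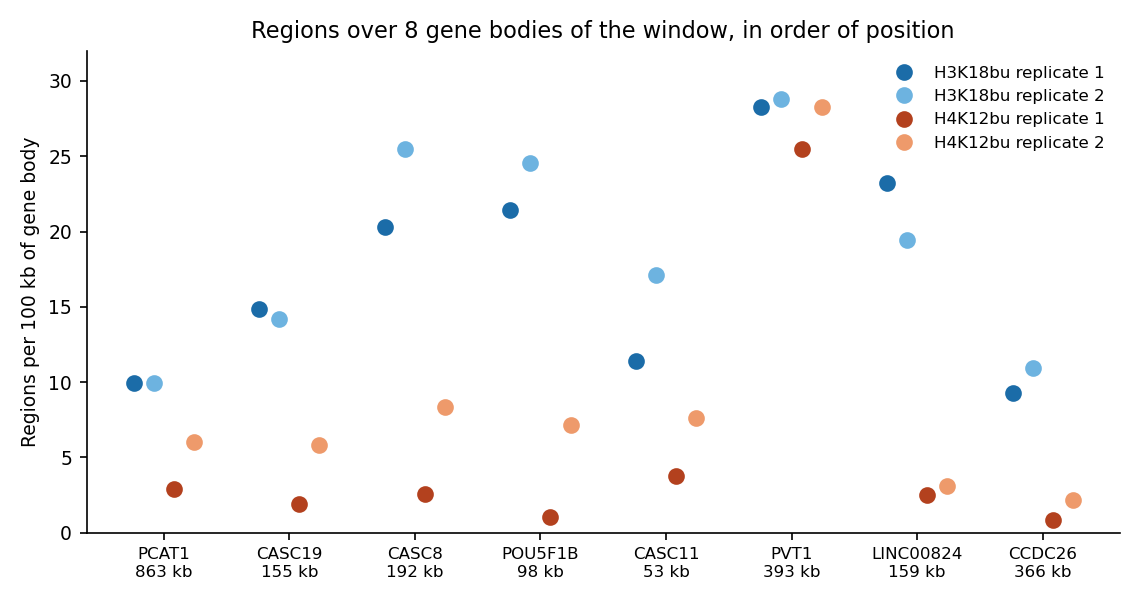
Regions per 100 kb of gene body (y axis) in 8 genes of the window in order of position (x axis, with the length inside the window), with a point per library. Among the plotted genes, the H3K18bu points stand above the H4K12bu points except in PVT1. There 3 of the 4 points lie close to 28 and H4K12bu replicate 1 at 25.5. In MYC, PRNCR1 and ENSG00000253573, which hold few regions, the densities of the marks also overlap.

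Other genes of the window, named after their values were seen, varied in this split. LINC00824, a lncRNA gene downstream of PVT1, held 37 and 31 regions of H3K18bu and 4 and 5 of H4K12bu, with 19 and 3 shared regions. The part of CCDC26 inside the window held 34 and 40 regions of H3K18bu and 3 and 8 of H4K12bu, with 13 shared H3K18bu regions and 0 shared H4K12bu regions. CASC11 held 6 and 9 regions of H3K18bu and 2 and 4 of H4K12bu. ENSG00000253573, inside PCAT1, held 7 and 9 regions of H3K18bu and 5 and 9 of H4K12bu, so that the marks overlapped. LRATD2, the protein-coding gene nearest to the upstream border, had a region in H4K12bu replicate 2 only, with a pileup of 5. In LINC00824, CCDC26 and CASC11 both H3K18bu replicates were above both H4K12bu replicates, and in ENSG00000253573 and LRATD2 they were not.

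At gene starts, 8 of the 35 starts inside the window (22.9%) had a shared H3K18bu region within 1 kb, against 19.6% of all annotated genes. For H4K12bu these were 5 of 35 (14.3%), against 11.5% of all annotated genes, and both shares of the window lie near those of the genome. Among the 3 protein-coding starts, 1 (POU5F1B) had a shared region of H3K18bu and 0 had one of H4K12bu. The PVT1 start had a region in each library, with pileups of 20 and 19 for H3K18bu and 13 and 7 for H4K12bu, and it was shared in both marks. The starts of ENSG00000286034 (pileups 29, 22, 18 and 7), LINC02912 (39, 44, 33 and 16) and ENSG00000278324 (52, 42, 39 and 16) also had shared regions of both marks. LINC02912 and ENSG00000278324 start inside PVT1. CCAT2, a lncRNA gene inside POU5F1B, had a shared H3K18bu region from 127400803 to 127400954 with pileups of 20 and 16, and 0 regions of H4K12bu. The start of ENSG00000286010 had H3K18bu pileups of 32 and 14.

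PVT1 hosts 5 annotated microRNA genes, and MIR1207 was the one with regions over it. Its body, from 128049152 to 128049238, was overlapped, whole or in part, by a region of every library, with pileups of 33 and 20 for H3K18bu and 36 and 14 for H4K12bu, shared in both marks. The bodies of MIR1204, MIR1205, MIR1206 and MIR1208 had 0 regions in all 4 libraries. Within 1 kb of the start, MIR1205 had 2 regions in H4K12bu replicate 1 and MIR1208 had 2 in H3K18bu replicate 1, and no other library had one at either start.

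The 2 marks overlapped unequally in the locus. Of the 196 shared H3K18bu regions, 50 (25.5%) overlapped a shared H4K12bu region, against 34.4% over all chromosomes. Of the 75 shared H4K12bu regions, 50 (66.7%) overlapped a shared H3K18bu region, against 41.8% over all chromosomes. For H3K18bu the share differed by place: 35 of 61 shared H3K18bu regions centred in PVT1 overlapped H4K12bu (57.4%), and outside PVT1 15 of 135 did (11.1%). The shared H4K12bu regions that could be overlapped were also unequal, 13.8 per 100 kb in PVT1 and 0.951 outside it. The part of this density in the share was not tested. For H4K12bu 35 of 54 in PVT1 (64.8%) and 15 of 21 outside it (71.4%) overlapped H3K18bu. The H3K18bu regions that overlapped shared H4K12bu regions had median pileups of 30 and 25, and those with no H4K12bu region in either replicate had 16 and 13. Their median folds were closer, 4.57 and 4.5 against 4.20 and 4.09. Counted with a region of H4K12bu in either replicate, which can only raise the number, 90 (45.9%) of the shared H3K18bu regions overlapped one.

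The local background at the regions was higher in the locus as a whole too. Its median at the regions was 3.20 and 2.47 read ends for H3K18bu, against 2.50 and 1.85 on the rest of chromosome 8. For H4K12bu it was 5.29 and 1.08, against 2.29 and 0.949. In PVT1 the median background was 6.45, 5.49, 6.96 and 2.86, which is 4.59, 4.90, 4.51 and 3.63 times the lowest background of each library. Outside the PVT1 body it was 2.66 and 2.15 read ends for H3K18bu, still above the rest of the chromosome, but 1.60 and 0.788 for H4K12bu, below it. Upstream of MYC it was 1.77, 1.85, 1.02 and 1.00 times the lowest. The fold of single regions was not higher: its median in the locus was 4.07, 3.88, 3.82 and 3.36, against 4.27, 4.04, 4.01 and 3.36 on the rest of the chromosome. In the PVT1 body the median fold was 3.59, 3.46, 3.39 and 3.20, below the rest of the chromosome in each library. The background comes from reads of the same library, those of the regions included, and its part in the number of regions was not tested.

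By gene feature, 133 of the 196 shared H3K18bu regions (67.9%) lay in introns, against 55.6% on the rest of chromosome 8, and 38 (19.4%) lay outside genes, against 29.4%. Of the shared H4K12bu regions, 49 (65.3%) lay in introns, against 66.9%, and 6 (8.0%) outside genes, against 16.3%. Within 1 kb of a gene start lay 10 shared H3K18bu regions (5.10%), against 8.27% on the rest of chromosome 8, and 8 of H4K12bu (10.7%), against 6.02%. Other exons held 15 of H3K18bu (7.65%), against 6.67%, and 12 of H4K12bu (16.0%), against 10.8%. Annotated gene bodies take 79.8% of the window and 62.4% of the rest of the chromosome.

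Base content and short motifs were read from GRCh38 from 100 bp before to 100 bp after the summit of each region. Mean GC was 47.5% and 47.3% for H3K18bu in the locus, against 50.1% and 49.9% on the rest of chromosome 8, and 50.7% and 49.0% for H4K12bu, against 50.3% and 48.5%. The AP-1 motif TGANTCA, searched on both strands, was found in 12.3% and 12.5% of the H3K18bu regions of the locus and in 14.8% and 13% of the H4K12bu regions. On the rest of chromosome 8 these shares were 10.3%, 10.2%, 9.46% and 8.11%, and on the other chromosomes 9.95%, 9.65%, 8.09% and 7.34%. The TCF/LEF motif ATCAAAG, the letters of the Wnt effectors, was in 2.3%, 2.94%, 1.94% and 1.3% of the regions of the locus, and in 2.23%, 2.56%, 2.09% and 2.15% on the rest. The E-box CACGTG, the letters MYC prefers, was in 1.02%, 1.23%, 3.23% and 0.870% of the regions of the locus and in 2.72%, 3.00%, 3.10% and 2.79% on the rest. As the locus held 391, 408, 155 and 230 regions, its TCF/LEF and E-box shares rest on few regions each. A match describes letters in the window and not the binding of a factor.

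The partners and rivals of MYC that share its dimerisation network were examined at their own starts. Of 12 such genes, 2 had a shared H3K18bu region within 1 kb of the start, against 31.3% of all protein-coding genes. These were MNT, a repressor that pairs with MAX, with pileups of 15 and 20, and MLXIPL, a glucose-responsive factor, with pileups of 14 and 9. MAX, the obligate partner of MYC, had a region in H3K18bu replicate 2 only, with a pileup of 7. For H4K12bu 0 of 12 had a shared region, against 14.7% of all protein-coding genes, and MYCL, MXI1, MLX and MLXIPL had a region in 1 replicate each. The same measure was taken at markers of cell types, where it shows mark and not expression. Of 12 genes of colon epithelium, 2 had a shared H3K18bu region (LGR5 and VIL1) and 2 a shared H4K12bu region (KRT8 and KRT18), while the defining EPCAM, CDH1 and CDX2 had none. Of 12 genes of fibroblasts, 3 had a shared H3K18bu region (COL1A2, FN1 and TWIST2) and 1 a shared H4K12bu region (COL1A2), while VIM, COL1A1 and PDGFRB had none. Of all protein-coding genes, 31.3% and 14.7% had a shared region of these marks. In replicates 1 and 2 taken alone, H3K18bu was at 2 and 4 epithelial starts and at 5 and 7 fibroblast starts. H4K12bu was at 2 and 4 epithelial starts and at 2 and 3 fibroblast starts. The cell type of CCD841 could not be read from these marks.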

How the data were processed

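CUT&Tag was measured in 4 CCD841 libraries, and the 8 mouse libraries of the series were not used here. According to the submitters' processing notes and the methods, reads were demultiplexed with bcl2fastq 2.17.1, trimmed with cutadapt 1.9.1, aligned to hg38 with Bowtie2 2.3.1, and peaks were called per library with MACS2 2.1.0 at p of 0.01, with no control library and at most 300000 peaks. The 4 lists reached 299720, 299691, 299445 and 299296 peaks, so this limit set their length. The authors deposited the fold ratio over the local background, the −log10 p and the −log10 q of each peak. Pileup and background were solved from the deposited fold ratio and −log10 p, within 0.01 of the latter, and the solver recovered 100% of 4975 simulated CCD841 peaks. Genes are those of GENCODE 44 on GRCh38, a gene start is the outermost one annotated, and coordinates count from 1. The window, genes and lists were chosen with earlier results of these data known. Named genes are the 8 of the rule, genes with a shared region within 1 kb of their start, microRNA genes, the 5 strongest shared regions per mark and the MYC network. CASC11, LINC00824, CCDC26, LRATD2 and ENSG00000253573 were named after their values were seen. The list of blood cell markers is not reported here. No test was run. Alternatives were q below 0.05 or 0.01, every peak, covered length, equal list lengths, moved borders, joined peaks, removal of N, stricter overlap and each replicate left out. Values were computed with scipy 1.17.1, pandas 2.3.3 and numpy 2.4.6 in Python 3.11.15.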

Additional observations from a re-analysis of the deposited data

Results flagged for a closer look

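The density of the window over that of the rest of chromosome 8 was above 1 in both H3K18bu replicates (2.09 and 2.00) and below 1 in both H4K12bu replicates (0.935 and 0.937), so the marks lay on opposite sides. The difference between the marks was not tested. The H4K12bu values are close to 1, and under 2 of 12 alternatives their mean was above it. H4K12bu replicate 2 alone was above 1 over every listed peak (1.01), at q below 0.05 (1.02), at q below 0.01 (1.15) and with the shorter window (1.01), and both replicates were above it with the 100000 strongest peaks (1.11 and 1.10).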

How the results depend on the processing

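The H3K18bu ratio of the window to the rest of chromosome 8 (2.05) stayed between 1.74 and 2.16 under all 12 alternatives. It was 2.14 with the 100000 strongest peaks of each list, 1.95 with peaks up to 500 bp apart joined, 2.16 and 1.94 with the window 100 kb shorter and longer on each side, and 1.74 without the PVT1 body, an alternative added after the data were seen. The H4K12bu ratio (0.936) was 0.996 over every listed peak, 0.972 in covered length, 0.977 at q below 0.05, 0.965 with joined peaks, 0.997 and 0.905 with the shorter and longer window, 0.933 without runs of N and 0.481 without the PVT1 body. It turned to 1.04 at q below 0.01 and to 1.10 with the 100000 strongest peaks, and the cause was not tested. Leaving out each replicate gave 2.00 to 2.09 for H3K18bu and 0.935 to 0.937 for H4K12bu. With the 100000 strongest peaks 73 shared regions of H3K18bu and 34 of H4K12bu were left, and at q below 0.01 43 of H4K12bu. The share of shared H3K18bu regions under H4K12bu (25.5%) was 17.3% at q below 0.01, 35.6% with the strongest peaks and 45.9% with either replicate. For H4K12bu under H3K18bu (66.7%) it was 79.4% with the strongest peaks and 89.3% with either replicate. The nearest shared region to the MYC start moved to 53.5 kb downstream for H3K18bu with the strongest peaks, and to 24.8 kb for H4K12bu at q below 0.01 and with the strongest peaks. The other 30 of 56 values stayed within the limits set for them. These were the spread of the replicates for ratios and a fixed factor for counts of shared regions. For shares the limit was a binomial interval, and distances had to be unchanged. No paired test was run, because 2 libraries per mark give only 2 pairs and the labels tie the marks by replicate number alone. The ratios of both marks are given replicate by replicate instead. H4K12bu replicate 2 is shallow, so that the absence of a region in it is not the absence of the mark. No library without antibody and no input was used, and the lists describe rank within a library only. Intervals cover counting error only and treat regions as independent.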

Other observations

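Region width in the locus differed between libraries. The median width was 224 and 177 bp for H3K18bu and 251 and 121.5 bp for H4K12bu, against 237, 193, 238 and 117 bp on the rest of chromosome 8. Shared regions, which join the peaks of both replicates and are wider by construction, had a median width of 407 bp for H3K18bu and 357 bp for H4K12bu, and the widest were 1834 and 1184 bp long. The 106 shared H3K18bu regions with no H4K12bu region in either replicate had a median width of 323.5 bp, and the 50 that overlapped a shared H4K12bu region had 576 bp. Only 8 shared H4K12bu regions had no H3K18bu region in either replicate.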
